A study of Mus musculus with 24 samples.

Results

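The 6 genes described here, Klf2, Klf4, Esrrb, Tfcp2l1, Tbx3 and Zfp42, encode factors of the naive pluripotent state, and the regions described are those that overlap a fixed window around each gene in 6 deposited ChIP-seq peak lists. The windows held 358 of the 1811308 regions in the 6 lists, with 57 and 81 in the NELFB:HA lists, 65 and 61 in the NELFE lists and 56 and 38 in the SPT5 lists. All libraries came from E14 mouse embryonic stem cells cultured in serum and LIF, of the genotype labelled "Nelfb deg", in which NELFB carries an HA tag and can be degraded with dTAG-13. The 6 libraries are labelled as controls, 2 for each of 3 antibodies: against the HA tag on NELFB, against NELFE and against DSIF, for the libraries titled SPT5. By the labels every library here carries the degron allele, but the file headers name both SPT5 libraries and their input "wt", and whether this stands for the genotype or for the control treatment is not given in the sources used here. The labels do not say whether the replicates of an antibody were separate cultures or whether the line is 1 clone, so the spread between them may be technical. The other 18 of the 24 samples, among them those given 500 nM dTAG-13 for 30 min and the naive and EpiLC samples, are not analysed here.

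NELF and DSIF bind RNA polymerase II shortly after initiation and hold it in a paused state near the start of the gene. NELF leaves when the polymerase is released, whereas SPT5, a subunit of DSIF, stays with it through the gene. NELFB and NELFE are subunits of the same NELF complex. Klf2 and Klf4 are Krüppel-like zinc finger factors, Esrrb is an orphan nuclear receptor, Tfcp2l1 is a CP2-family factor, Tbx3 is a T-box factor and Zfp42 encodes the zinc finger protein REX1, a widely used marker of naive cells. Klf4 and Tbx3 lie downstream of LIF signalling, and Esrrb, Tfcp2l1 and Klf2 belong to the network that keeps naive cells self-renewing.

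A region is called strong below when its deposited q-value was 0.01 or less. The leading region of a locus is the region with the highest pileup, the mean ChIP coverage, in that window and library. Filtered depth ran from 28944909 to 41312333 tags in the NELF libraries, and was 27324697 and 62312558 tags in the first and second SPT5 libraries. The SPT5 libraries had longer tags (100 and 101 bp against 50 bp) and 1 shared input. Antibody therefore cannot be told apart from tag length or input in any comparison with SPT5, and no SPT5 library shares either with a NELF library. Whether the SPT5 libraries were also sequenced in a separate batch was not established here, and such a batch could not be told apart either. Fold enrichment, pileup and q-value are the authors' own, from a separate call against an input in each library. Fold and pileup describe and rank regions within a list. The q-value sets which regions are called strong, so any length of strong regions compared between antibodies also moves with how much was called in each library. Positions are those of the authors' files on mm10, and gene positions are those of RefSeq on GRCm38.p6, the same assembly.

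Each of the 6 loci had a strong region in both libraries of each antibody, and all 36 leading regions were strong. Esrrb and Tfcp2l1 lost this for SPT5 at a q-value of 1e-05 (4 loci left), and these and Tbx3 at a fold of 3 or more (3 loci left). Esrrb lost it for NELFB:HA at both settings (5 loci left), and NELFE kept all 6. Of the windows' regions, 17.5% and 11.1% were strong in the NELFB:HA libraries, against 2.97% and 1.85% of the whole lists. The shares were 20% and 21.3% in the NELFE libraries, against 5.52% and 5.42%. They were 14.3% and 18.4% in the SPT5 libraries, against 1.51% and 6.08%. In all, 60 regions were strong, with folds of 2.2 to 8.82, and 298 were weaker, with folds of 1.42 to 2.86. Nearest the threshold stood a strong NELFB:HA region in Tbx3 (q-value 0.0084) and a weaker NELFE region in Tfcp2l1 (q-value 0.0101). A wide share of genes is occupied in this way. Among 21883 protein-coding genes taken with 5 kb on each side, 41.5% had a strong NELFB:HA region in both libraries, 48.3% a strong NELFE region and 35.8% a strong SPT5 region, and 33.5% were strong in all 6 libraries. The 6 of 6 loci are to be read against these shares.

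The position of the leading region separated Esrrb from the other 5 loci. At Klf2, Klf4, Tfcp2l1, Tbx3 and Zfp42 the leading region held the annotated start in every library, which accounts for 30 of the 36 leading regions. At Esrrb it lay far inside the gene in all 6. Of 32851 starts in the RefSeq promoter table, 25.9% had a strong NELFB:HA region within 1 kb in both libraries, 30.5% a strong NELFE region and 22.1% a strong SPT5 region. The table holds 6 starts for 5 of the genes, of which the 4 starts of Klf2, Klf4, Tfcp2l1 and Zfp42 were strong with each antibody and both Esrrb starts with none. For Tbx3 the first base of the annotated gene, on the plus strand, was used as the start.

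The sequences before these starts are shown because the starts with and without a strong region can be compared in them. Each line gives 150 bases that end just before the start, 5′ to 3′ on the strand of the gene, from RefSeq on GRCm38.p6. Capitals mark 3 short motifs searched on both strands: TATAA, the core of a TATA box (TTATA on the other strand), GGGCGG, a GC box bound by SP and KLF family factors (CCGCCC on the other strand), and CCAAT, bound by NF-Y (ATTGG on the other strand). The 4 lines from Klf2 to Zfp42 belong to starts under a strong region, and the 2 Esrrb lines to starts without one.
Klf2, chr8:72318912-72319061, plus strand: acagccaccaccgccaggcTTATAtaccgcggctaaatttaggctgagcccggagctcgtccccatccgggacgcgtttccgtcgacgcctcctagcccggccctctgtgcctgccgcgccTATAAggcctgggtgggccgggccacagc
Klf4, chr4:55532476-55532625, minus strand: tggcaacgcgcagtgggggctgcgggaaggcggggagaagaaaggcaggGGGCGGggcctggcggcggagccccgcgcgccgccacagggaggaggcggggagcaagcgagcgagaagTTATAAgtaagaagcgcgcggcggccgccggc
Tfcp2l1, chr1:118627795-118627944, plus strand: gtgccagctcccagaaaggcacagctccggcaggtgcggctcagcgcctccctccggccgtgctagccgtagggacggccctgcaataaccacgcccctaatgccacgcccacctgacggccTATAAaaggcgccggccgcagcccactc
Zfp42, chr8:43307010-43307159, minus strand: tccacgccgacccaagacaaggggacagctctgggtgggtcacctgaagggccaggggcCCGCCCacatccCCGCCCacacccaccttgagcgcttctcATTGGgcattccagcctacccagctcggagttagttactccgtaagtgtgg
Esrrb first start, chr12:86360967-86361116, plus strand: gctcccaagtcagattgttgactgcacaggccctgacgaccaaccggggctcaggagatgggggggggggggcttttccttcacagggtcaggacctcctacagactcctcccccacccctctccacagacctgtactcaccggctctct
Esrrb second start, chr12:86421494-86421643, plus strand: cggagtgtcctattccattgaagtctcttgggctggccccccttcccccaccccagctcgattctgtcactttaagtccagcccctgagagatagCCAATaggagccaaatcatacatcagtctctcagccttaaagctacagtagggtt

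Klf2, Klf4 and Tfcp2l1 had TATAA on the strand of the gene with its first base 29, 31 and 28 bases before the start. In Klf4 it overlaps a match on the other strand, so that the capitals there run together. Over all 32851 starts, 14.2% held TATAA on either strand in the same 150 bases. On the strand of the gene, with its first base 25 to 35 bases before the start, 2.97% did, a window chosen after these positions were seen. GGGCGG was found before Klf4 and, as CCGCCC at 2 positions, before Zfp42, against 28.6% of all starts. CCAAT was found before Zfp42 and before the second Esrrb start, against 24.5%. The sequences of these 4 strong starts held more CpG dinucleotides than those of Esrrb, with 15 in Klf2, 20 in Klf4, 13 in Tfcp2l1 and 7 in Zfp42. Of all starts, 15.3%, 6.25%, 20.3% and 37.9% had as many. CpG counts of strong and other starts were not compared beyond these genes. The Esrrb starts had 3 and 2, and the median start 4. These are matches of letters, and no binding of a factor to them was measured.

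**Figure D1:**
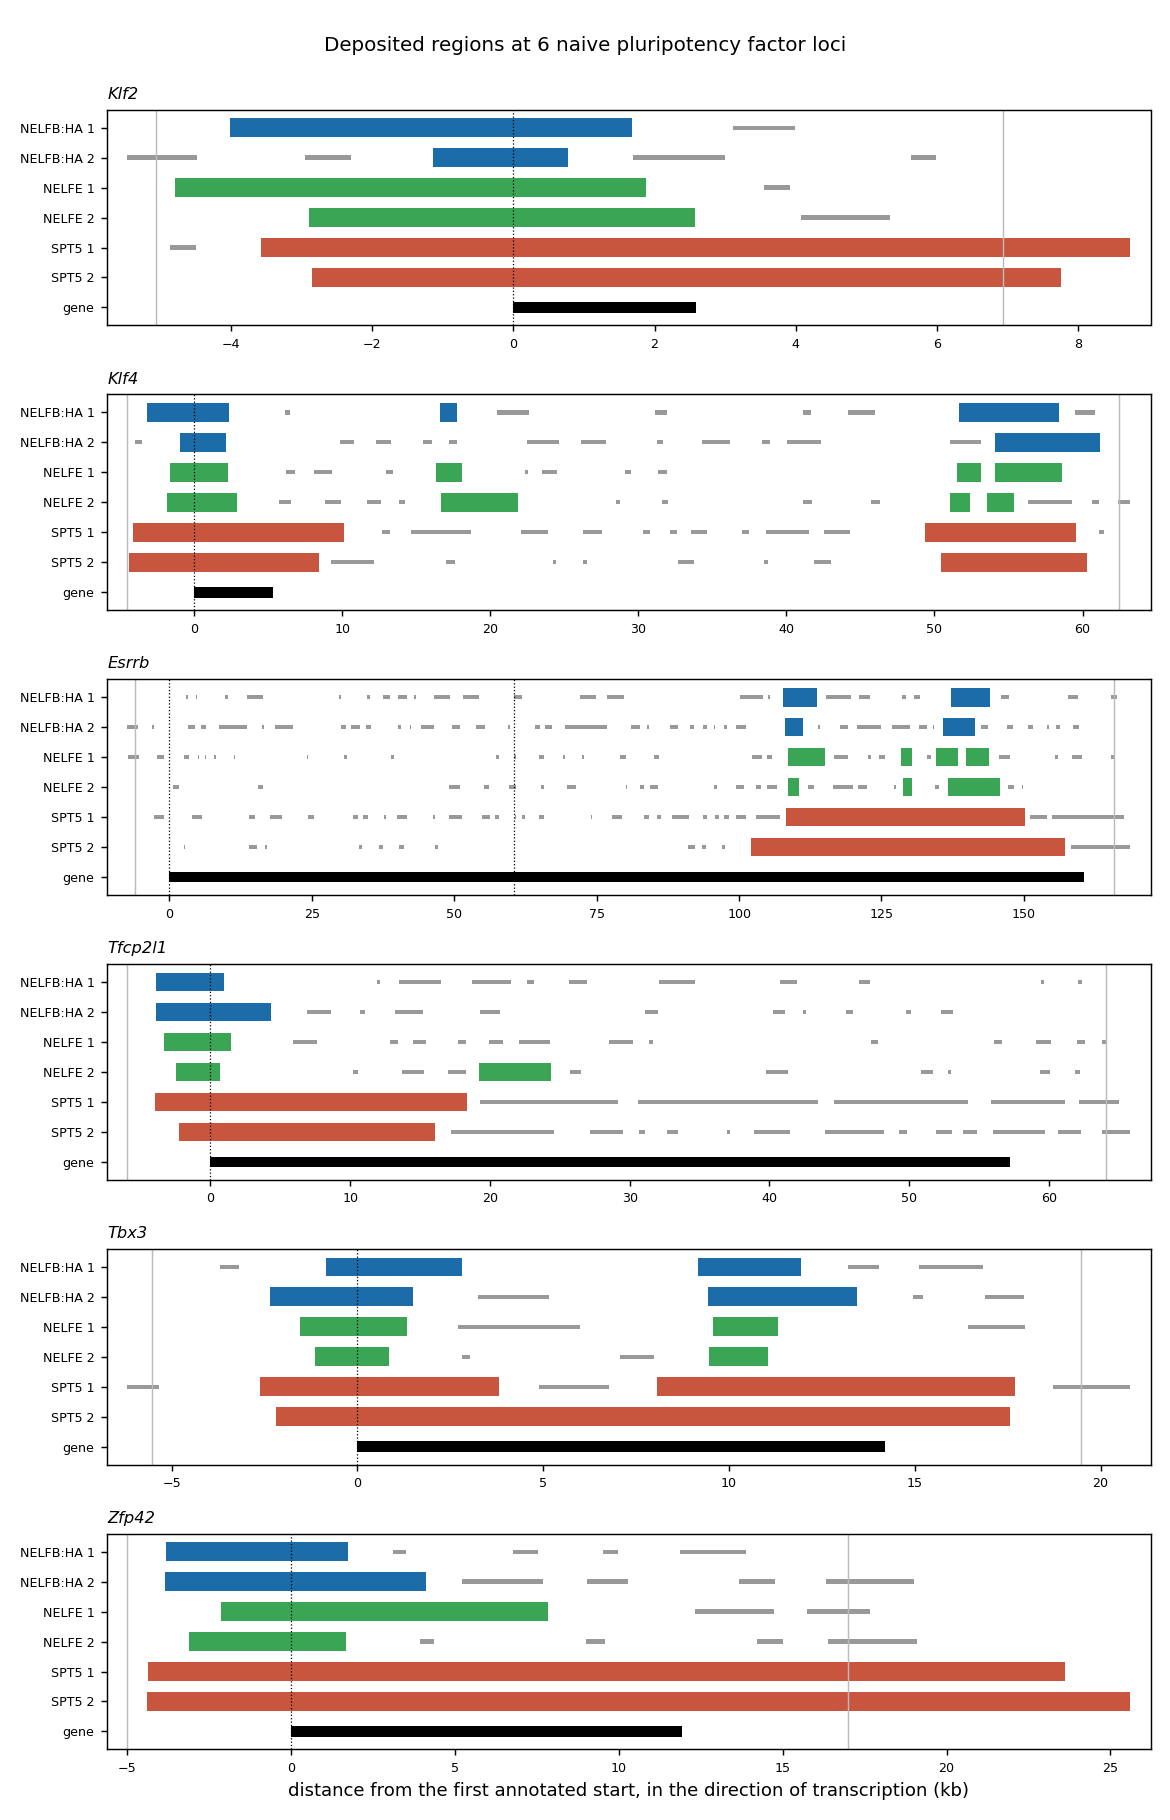
Regions at each locus, with distance from the first annotated start in kb on the horizontal axis and 1 row for each of the 6 libraries; coloured bars are strong regions, thin grey bars are weaker ones, the black bar is the annotated gene, dotted lines are annotated starts and grey lines bound the window. Strong NELF bars stand at the start in 5 loci and only inside the gene at Esrrb, and the strong SPT5 bars run on into or past the gene. Further strong NELF bars lie away from the start at Klf4, Tbx3 and, in the second NELFE library, Tfcp2l1.

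Klf2 carried the best ranked region of the 6 loci in each of the 6 libraries. The gene lies on chromosome 8 from 72319062 to 72321654, on the plus strand. Its leading NELFB:HA regions ran from 72315042 to 72320742 (5701 bp, fold 6.15, rank 1683 by pileup) and from 72317917 to 72319836 (1920 bp, fold 8.82, rank 89). For NELFE they ran from 72314274 to 72320939 (6666 bp, fold 7.28, rank 1342) and from 72316161 to 72321629 (5469 bp, fold 5.49, rank 2080). For SPT5 they ran from 72315487 to 72327803 (12317 bp, fold 5.49, rank 295) and from 72316205 to 72326814 (10610 bp, fold 5.32, rank 208). The second NELFB:HA region was the shortest of the 6, and it was also the best ranked of all 36 leading regions. The bases shared by all 6 regions ran from 1.1 kb before the start to 0.8 kb after it. Both SPT5 regions covered the whole gene and ended 6.1 and 5.2 kb past its end, whereas every NELF region ended inside the gene.

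Klf4 had the next best rank in every library but the second NELFE library, where Tfcp2l1 stood before it, and it had a second, distant site. Its gene lies on chromosome 4 from 55527137 to 55532475 on the minus strand. At the start, the NELFB:HA regions ran from 55530120 to 55535656 (5537 bp, fold 7.2, rank 1856) and from 55530326 to 55533441 (3116 bp, fold 8.28, rank 455). The NELFE regions there ran from 55530203 to 55534112 (3910 bp, fold 5.74, rank 2385) and from 55529591 to 55534302 (4712 bp, fold 7.2, rank 3007). The SPT5 regions, from 55522336 to 55536605 (14270 bp, fold 4.41, rank 982) and from 55524043 to 55536879 (12837 bp, fold 4.14, rank 1158), again covered the whole gene. They ended 4.8 and 3.1 kb past it, and the 4 NELF regions ended within it. A long noncoding RNA gene, Gm12506, begins at 55532710, next to the Klf4 start. The libraries carry no strand, so occupancy by its transcription and by that of Klf4 cannot be told apart.

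Downstream of Klf4, in the part of the window where distal enhancers of the gene have been described in embryonic stem cells, all 6 libraries had strong regions. The bases common to all 6 ran from 55477106 to 55478366, which is 54.1 to 55.4 kb from the Klf4 start and 48.8 to 50.0 kb past the end of the gene. The NELFB:HA regions there were 6806 and 7048 bp long, with folds of 2.73 and 2.42 and ranks of 8644 and 8320. Each NELFE library had a pair of regions: 4518 and 1630 bp in the first (folds 3.37 and 4.23, ranks 8772 and 7611), and 1811 and 1310 bp in the second (folds 4.56 and 3.12, ranks 5434 and 6476). SPT5 covered the site with 1 region in each library, of 10136 bp (fold 2.99, rank 2890) and 9904 bp (fold 2.52, rank 4475). These folds were lower than those at the Klf4 start in each of the 6 libraries. Between the downstream SPT5 region and the one over the gene, 39.3 and 42.0 kb held no strong SPT5 region. A further site 16.7 to 17.7 kb from the start was strong in 3 libraries only, the first NELFB:HA library (fold 2.71) and both NELFE libraries (2.42 and 2.2).

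Esrrb was the only one of the 6 genes with no strong region at an annotated start. The gene, 160512 bp long, lies on chromosome 12 from 86361117 to 86521628 on the plus strand, with annotated starts at 86361117 and 86421644. Within 1 kb of the first start no region was listed in either NELFB:HA library or in the second SPT5 library. The other 3 libraries had 1 weak region each there, with NELFE folds of 1.64 and 1.80 and an SPT5 fold of 2.12. At the second start the weak NELFB:HA regions had folds of 1.87 and 1.48, the NELFE regions 2.47 and 2.27 and the first SPT5 library 1.47, and the second SPT5 library listed none. Starts of transcripts outside the RefSeq promoter table were not examined, so the strong sites inside the gene are given by position alone.

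Inside Esrrb, NELF formed a leading site with bases common to all 6 libraries from 86469791 to 86471639, 48.1 to 50.0 kb after the second start. The leading NELFB:HA regions ran from 86468799 to 86474813 (6015 bp, fold 3.52, rank 6074) and from 86469110 to 86472383 (3274 bp, fold 2.72, rank 5078). The leading NELFE regions ran from 86469775 to 86476209 (6435 bp, fold 3.99, rank 6224) and from 86469791 to 86471639 (1849 bp, fold 5.87, rank 3329). A later site, common to all 6 from 86498380 to 86499558, had NELF folds of 2.65 to 3.25. Between them, a site from 86489864 to 86491538 was strong in both NELFE libraries (folds 3.06 and 3.36) and in neither NELFB:HA library. SPT5 covered all of these sites with a single region in each library, from 86469418 to 86511287 (41870 bp, fold 2.88, rank 4914) and from 86463273 to 86518389 (55117 bp, fold 2.47, rank 7034). Those began 108.3 and 102.2 kb after the first start and stopped 10.3 and 3.2 kb before the end of the gene. Strong SPT5 thus lay over the later part of Esrrb and not over its first 100 kb in either library. Of all strong SPT5 regions in the lists, 0.0573% and 0.06% were as long or longer.

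Tfcp2l1 had a NELF site at its start and an SPT5 region that ran 16.0 to 18.4 kb into the gene. It lies on chromosome 1 from 118627923 to 118685168, on the plus strand. The NELFB:HA regions ran from 118624077 to 118628948 (4872 bp, fold 3.5, rank 4158) and from 118624052 to 118632310 (8259 bp, fold 3.48, rank 5729). The NELFE regions ran from 118624662 to 118629404 (4743 bp, fold 6.05, rank 5912) and from 118625461 to 118628631 (3171 bp, fold 5.87, rank 2951). In the second NELFE library alone, a further region of 5165 bp within the gene was strong (fold 2.62). The SPT5 regions ran from 118623966 to 118646317 (22352 bp, fold 2.46, rank 6767) and from 118625673 to 118643983 (18311 bp, fold 2.37, rank 7044), the lowest SPT5 ranks of the 6 loci. Strong SPT5 regions covered 32.1% and 28.1% of the gene. With regions of any strength counted, SPT5 covered 91.1% and 66.4% of Tfcp2l1, against a median of 26.9% and 6.62% over all protein-coding genes in the same lists, and 4.67% and 6.62% of those genes reached as much. NELFB:HA regions of any strength covered 23.3% and 23.8% of it, with medians of 18% and 26.5%. NELFE regions covered 20.2% and 22% of it, above medians of 9.92% and 10.9%. High SPT5 cover by this measure was not particular to Tfcp2l1. It was 100% in both libraries at Klf2, Klf4 and Zfp42, 83.4% and 100% at Tbx3, and 50.2% and 40% at Esrrb.

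Tbx3 showed a site at its start and another inside the gene with every antibody. It lies on chromosome 5 from 119670534 to 119684724 on the plus strand. At the start, the NELFB:HA regions ran from 119669691 to 119673350 (3660 bp, fold 4.21, rank 5828) and from 119668179 to 119672035 (3857 bp, fold 3.28, rank 4774). The NELFE regions ran from 119668980 to 119671868 (2889 bp, fold 4.92, rank 6176) and from 119669390 to 119671384 (1995 bp, fold 4.32, rank 5265). The site inside the gene, common to all libraries from 119680092 to 119681585 and 9.6 to 11.1 kb after the start, had lower folds. The NELFB:HA regions there had folds of 2.31 and 2.52, and the NELFE regions 3.04 and 3.58. In the first SPT5 library the sites lay in separate regions, from 119667915 to 119674341 (6427 bp, fold 3.59, rank 2895) and from 119678600 to 119688221 (9622 bp, fold 2.72), 4.3 kb apart. In the second they were 1 region, from 119668356 to 119688099 (19744 bp, fold 2.64, rank 6334). The antisense gene Tbx3os1 overlaps the Tbx3 start, and another gene, Tbx3os2, lies past the Tbx3 end, from 119685088 to 119691218. The SPT5 regions that ran past the end of Tbx3 stopped inside Tbx3os2, at 119688221 and 119688099. These unstranded libraries cannot tell Tbx3 apart from either neighbour.

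Zfp42 had the widest NELFE region and the second longest SPT5 regions of the 6 loci. The gene lies on chromosome 8 from 43295067 to 43307009 on the minus strand. Its NELFB:HA regions ran from 43305276 to 43310813 (5538 bp, fold 4.39, rank 6044) and from 43302888 to 43310838 (7951 bp, fold 3.72, rank 5867). Its NELFE regions ran from 43299165 to 43309128 (9964 bp, fold 3.99, rank 6925) and from 43305329 to 43310103 (4775 bp, fold 5.7, rank 4378). The first NELFE region reached 7.8 kb into the gene and the second 1.7 kb, so the NELFE replicates differed at this edge more than at any other NELF leading region here. The SPT5 regions, from 43283400 to 43311379 (27980 bp, fold 4.05, rank 2960) and from 43281399 to 43311398 (30000 bp, fold 3.92, rank 3211), covered the whole gene. They ended 11.7 and 13.7 kb past it, further than at Klf2, Klf4 or Tbx3, and beyond the window. Both reached 4.4 kb before the start.

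**Figure D2:**
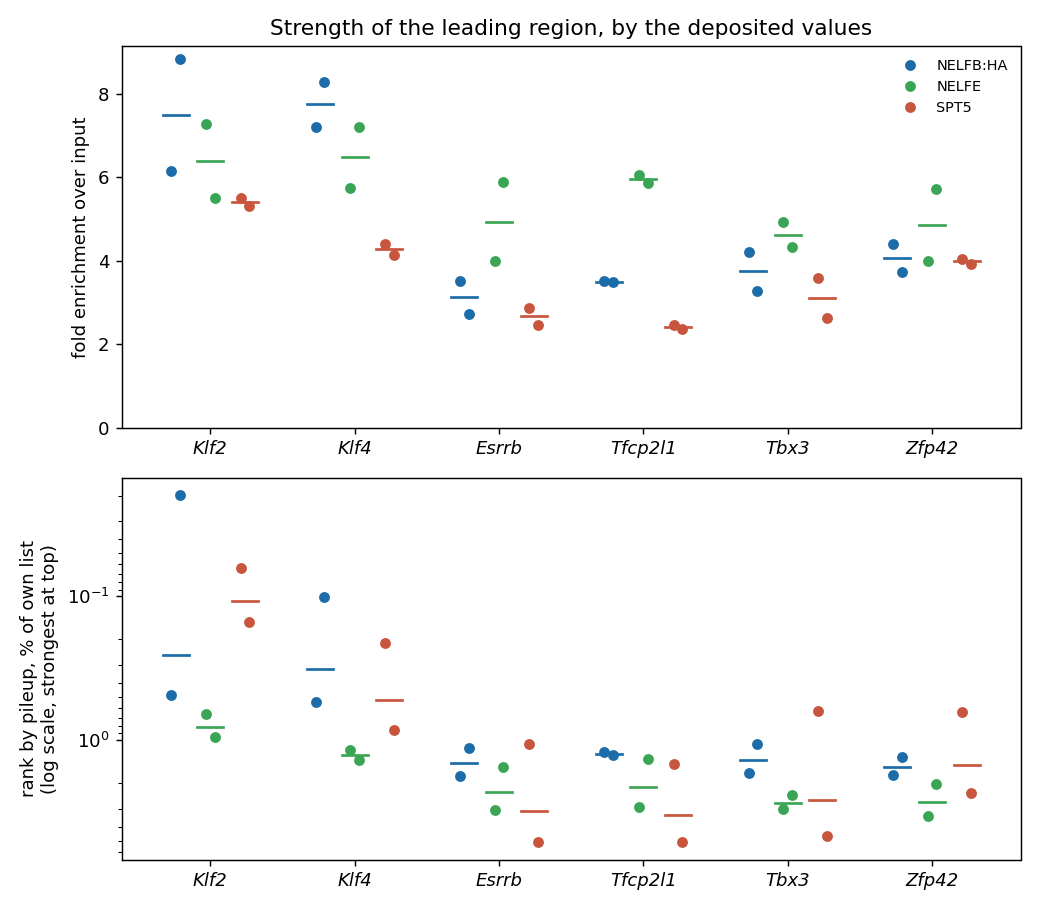
Deposited fold enrichment over input (upper panel) and rank by pileup as a percent of the library's own list on a log axis with the strongest at the top (lower panel), for the leading region of each locus; points are libraries and short lines are means of 2. Klf2 and Klf4 have the highest folds and ranks for NELFB:HA and SPT5, and all 36 leading regions lie within the top 5.14% of their list.

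Within the whole lists, most of which are weak regions, the leading regions stood near the top. They stood between 0.0199% (Klf2) and 1.77% (Esrrb) from the top for NELFB:HA and between 0.659% (Klf2) and 3.4% (Zfp42) for NELFE. Those of SPT5 stood between 0.0638% (Klf2) and 5.14% (Tfcp2l1). Among strong regions alone the loci spread widely. Klf2 and Klf4 stood within the top 25.5% of strong regions in every library and within the top 13.6% for SPT5. Tfcp2l1 ranked 5947 of 6978 and 6586 of 8329 strong SPT5 regions, and Esrrb 4656 and 6577, so both lay in the lower part of the strong SPT5 regions. Tbx3 did so in the second SPT5 library (rank 6025) and not in the first (rank 2789). In both NELFB:HA libraries, Esrrb, Tbx3 and Zfp42 stood between 56.5% and 69% from the top of the strong regions. The order of Esrrb, Tfcp2l1, Tbx3 and Zfp42 changed between the replicates of each antibody. Fold enrichment is a mean over the region, so a long region with 1 sharp summit has a lower fold than a short one with the same summit. Tfcp2l1 had SPT5 folds of 2.46 and 2.37 beside NELFE folds of 6.05 and 5.87, from separate lists and from regions of unlike length. The SPT5 regions at Zfp42 and Esrrb were longer than at Tfcp2l1, with folds of 4.05 and 3.92 and of 2.88 and 2.47. Whether length bears on these folds was not tested.

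The lengths of the regions are measured in the same unit in every library and were compared between antibodies. Leading SPT5 regions were longer than leading NELF regions at all 6 loci. The median over the loci was 18311 and 19027.5 bp in the SPT5 libraries, 5537.5 and 3565.5 bp in the NELFB:HA libraries and 5589 and 3941.5 bp in the NELFE libraries. In each of the 12 comparisons of SPT5 with a NELF antibody at a locus, both SPT5 lengths lay above both NELF lengths. With 2 libraries in each group, such separation forces the difference of means above the pooled SD, so that excess adds no support. The two-sided exact permutation test gave p = 0.333 in each of these comparisons. No smaller value is possible with 2 libraries in each group, so none can pass a threshold of 0.05. The members were chosen with earlier results known, and no p adjusted over these loci is given.

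Esrrb showed the largest difference in length, with 48493.5 ± 9367.0 bp for SPT5 against 4142 ± 3242.8 bp for NELFE (SD, n = 2 each, exact permutation p of 0.333), a ratio of 11.7. Neither Esrrb SPT5 region passed a q-value of 1e-05 or a fold of 3, so their call as strong rests on the threshold of 0.01. Their lengths do not depend on that threshold, because the leading region was chosen by pileup. They do depend on the authors' calls, made with p-value cutoffs of 0.01 and 0.1 that were not varied here. This holds for every leading length given. Zfp42 followed with 28990 ± 1428.4 bp against 7369.5 ± 3669.2 bp. At Tfcp2l1 the means were 20331.5 ± 2857.4 and 3957 ± 1111.6 bp, and at Klf4 13553.5 ± 1013.3 and 4311 ± 567.1 bp. Tbx3, with 13085.5 ± 9416.5 bp for SPT5 and 2442 ± 632.2 bp for NELFE, had the widest relative spread among the SPT5 lengths, with its 2 sites joined in 1 SPT5 library and apart in the other. Klf2 had the smallest ratio, 1.89, from 11463.5 ± 1207.0 and 6067.5 ± 846.4 bp (SD, n = 2 each).

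**Figure D3:**
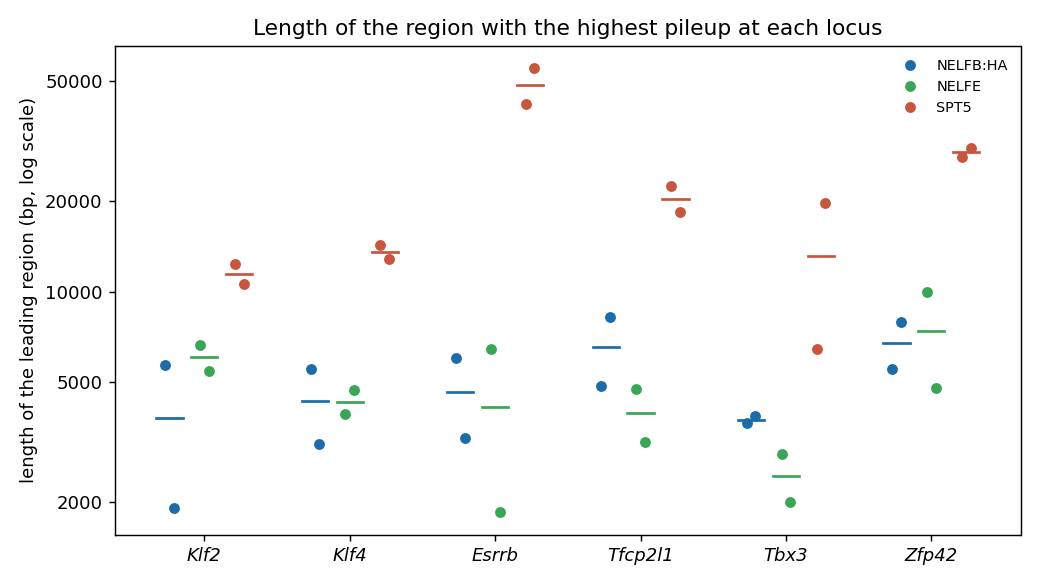
Length in bp, on a log axis, of the leading region at each locus in the 2 libraries of each antibody (points) with their mean (lines). Both SPT5 points lie above all 4 NELF points at each of the 6 loci.

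Between the NELF antibodies, the leading lengths overlapped at Klf2, Klf4, Esrrb and Zfp42. At Tfcp2l1 both NELFB:HA regions were longer than both NELFE regions, by 2608.5 bp between means, and at Tbx3 by 1316.5 bp (pooled SD 1867 and 457.7 bp, exact permutation p of 0.333 each). Strong regions covered 48901 and 45041 bp of the 6 windows in the NELFB:HA libraries and 54189 and 47872 bp in the NELFE libraries. In the SPT5 libraries they covered 136571 and 147108 bp. The deeper SPT5 library, with 62312558 tags, was the second, and it covered more than the first at Esrrb, Tbx3 and Zfp42 (21399 against 21380 bp) and less at Klf2, Klf4 and Tfcp2l1. At fold 3 or more in place of the q-value, the SPT5 minus NELFE difference over the windows was 7327 bp in place of 90809 bp, and strong SPT5 regions remained in both libraries at 3 loci.

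Gene bodies were covered to different extents. Strong SPT5 regions covered 100% of Klf2, Klf4 and Zfp42 in both libraries. They covered 70% and 100% of Tbx3, 26.1% and 34.3% of Esrrb and 32.1% and 28.1% of Tfcp2l1. For NELFB:HA the cover was 64.8% and 29.9% of Klf2, 44.1% and 40.3% of Klf4, 39.4% and 38.9% of Tbx3, and 14.5% and 34.5% of Zfp42. NELFB:HA covered at most 8.03% of Esrrb and 7.67% of Tfcp2l1. NELFE covered 72.4% and 99% of Klf2, 42.6% and 54% of Klf4, 21.9% and 17.1% of Tbx3, and 65.7% and 14.1% of Zfp42. Its cover of Esrrb was 10.2% and 7.88%, and that of Tfcp2l1 2.59% and 10.3%. The genes with full SPT5 cover are the shorter ones, of 2593, 5339 and 11943 bp, and Tfcp2l1 and Esrrb, at 57246 and 160512 bp, are the longest.

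**Figure D4:**
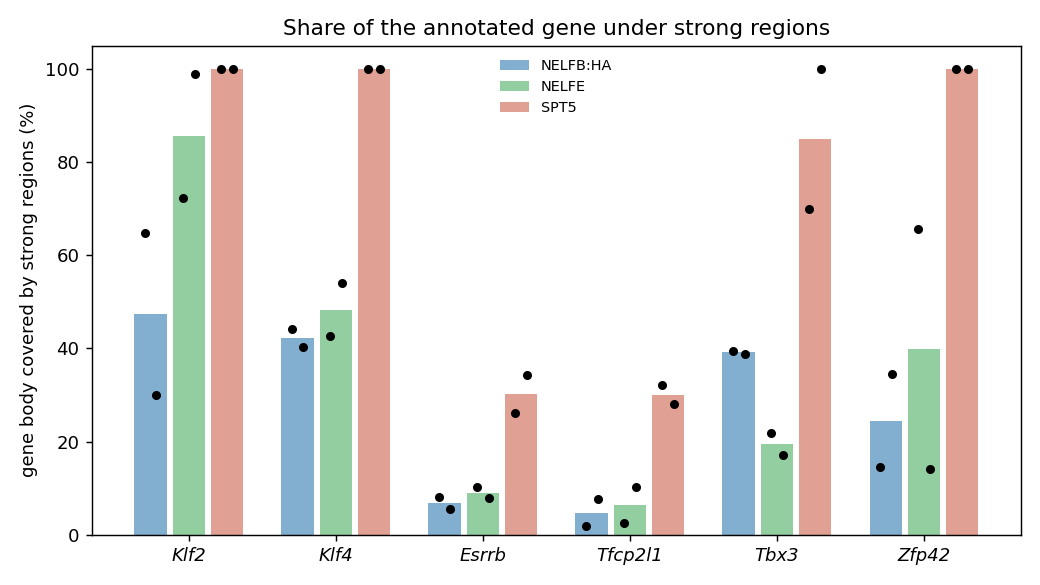
Percent of each annotated gene covered by strong regions, with bars for the mean of 2 libraries and points for each library. SPT5 covers 100% of Klf2, Klf4 and Zfp42, and at most 34.3% of the long genes Esrrb and Tfcp2l1.

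The same measure was taken over all protein-coding genes to give these lengths a background. Of the 7340 genes with a strong region in all 6 libraries, 25.4% had a leading SPT5 region longer in both libraries than in all 4 NELF libraries, and all 6 naive factors did. With replicate 1 or replicate 2 of every antibody left out, so that fewer lengths must be exceeded, the share of genes was 41% or 59.3%, and all 6 factors were still among them. Over the 7340 genes the median log2 ratio of mean SPT5 to mean NELF length was 0.36, and over the 6 it was 2.00. Klf2 had 1.21, Klf4 1.65, Tfcp2l1 1.95, Zfp42 2.04, Tbx3 2.08 and Esrrb 3.46. Of the 7340 genes, 19.2% reached the ratio of Klf2 and 10.5% that of Klf4. Between 5.6% and 6.61% reached those of Tbx3, Zfp42 and Tfcp2l1, and 0.477% that of Esrrb. The place of Tbx3 depended on the SPT5 library: its log2 ratio was 2.67 without the first (reached by 2.44% of genes) and 1.05 without the second (reached by 28%). Without either SPT5 library in turn, Esrrb was reached by 0.436% and 0.777% of genes. The place of the leading NELFE lengths among all genes varied between members. The mean NELFE length of Zfp42 was reached by 0.531% of these genes, that of Klf2 by 1.24% and that of Tbx3 by 36.7%. The median log2 ratio of NELFB:HA to NELFE length was 0.09 over the 6 and 0.24 over the 7340.

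**Figure D5:**
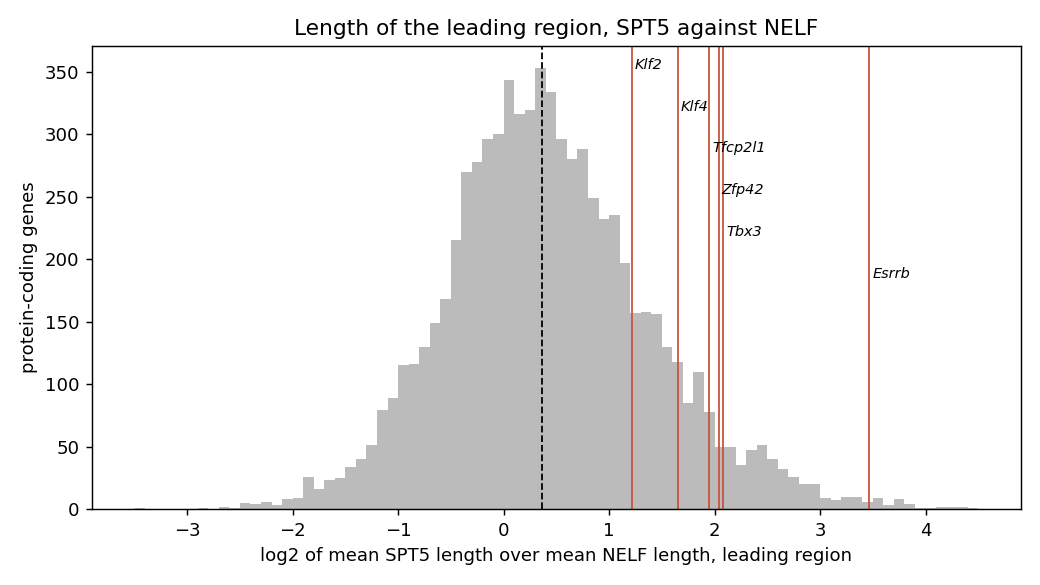
Number of protein-coding genes (7340 with a strong region in all 6 libraries) by the log2 ratio of mean SPT5 to mean NELF length of the leading region; red lines mark the 6 naive factors and the dashed line the median of 0.36. All 6 lie above that median, from 1.21 for Klf2 to 3.46 for Esrrb.

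Other genes of the pluripotency network and the LIF pathway were read from a list of 24, all found in the annotation. Of these, 19 had a strong NELFB:HA region in both libraries, 21 a strong NELFE region and 18 a strong SPT5 region, and 18 were strong in all 6. The shares over all protein-coding genes were 41.5%, 48.3%, 35.8% and 33.5%. Among the 18, SPT5 was longer than in all 4 NELF libraries at 9: Klf5, Sox2, Sall4, Tdgf1, Tet1, Tet2, Stat3, Il6st and Nr0b1. Over all protein-coding genes strong in all 6 libraries, that share was 25.4%. Klf5, a further Krüppel-like factor of naive cells, had SPT5 regions of 29605 and 30026 bp beside NELF regions of 3523 to 5222 bp. Pou5f1, the core factor OCT4, had SPT5 regions of 4548 and 6219 bp and NELF regions of 5576 to 6550 bp, which overlap. Prdm14, Tcl1 and Dppa3 had no strong region in any library, and Nr5a2 and Dppa4 were strong in both libraries for NELFE alone. Nanog, a core factor, was strong in all 4 NELF libraries and in the second SPT5 library only. Of 12 genes of other cell types, such as Alb, Afp and Myh6, 1 was strong in all 6 libraries, Actn2. Its SPT5 regions, of 1103 and 1008 bp, were also longer than its NELF regions, of 524 to 585 bp. These lists were not tested against each other or against the 6 factors.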

How the data were processed

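Occupancy was measured by ChIP-seq in 6 control libraries. Per the file headers, the authors called broad regions with MACS 2.1.1.20160309 in each library separately against an input, with p-value cutoffs of 0.01 and 0.1 and at most 1 tag per position. Build mm10, Bowtie2 and deepTools are named in the submitters' processing notes. Per the file headers, the deposited pileup is a coverage signal after scaling the larger of ChIP and input to the smaller, and the deposited fold enrichment is its ratio to local input. The authors' tables also give a −log10 p-value and a −log10 q-value for each region, which MACS2 averages over it in broad mode, as it does the fold. The headers announce that q is not calculated, yet that column holds values, and those were taken as q-values.

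Lists were limited to the 21 assembled nuclear chromosomes. Regions overlapping a window by at least 1 bp were taken with Python 3.11.15 and pandas 2.3.3, and gene positions and promoter sequences from RefSeq. All 6 members were named, each with its leading region and other sites strong in both libraries of an antibody. Further sites strong in a single library, and the genes named from the list of 24, were picked after their values were seen. Lengths were compared with two-sided exact permutation tests, 18 locus comparisons per measure. Overlap and permutation code was tested on simulated data. The members and lists were chosen with earlier results of these data known. The gene background with 5 kb on each side was added after seeing the data. Alternatives changed the q-value, the fold, clipping, ranking, joining and replicates.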

Additional observations from a re-analysis of the deposited data

How the results depend on the processing

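Of 163 alternatives for 34 results, 131 were scored as unchanged, 32 moved a value beyond the spread or threshold and 0 reversed a direction. The 131 include every replicate block, which cannot change a difference of means. They also include other choices of the leading region at single loci, which were scored only for a reversal. The count of 131 is therefore no measure of stability. With 2 libraries per antibody the exact permutation test cannot pass 0.05, so its unchanged p shows no stability. The length covered by strong SPT5 regions depended on the threshold. SPT5 minus NELFB:HA over the 6 windows was 94868.5 bp, and 102105.5 bp at a q-value of 0.05, 29970.5 bp at 1e-05, 20098.5 bp at a fold of 3 or more and 103777.5 bp with regions at full length. SPT5 minus NELFE was 23632.5 bp at 1e-05, 7327 bp at a fold of 3 or more and 99718 bp at full length, and NELFB:HA minus NELFE went from −4059.5 to −12771.5 bp at a fold of 3 or more. A fold of 3 or more left 3 loci with strong SPT5 in both libraries, and a q-value of 1e-05 left 4, and 4051 of 7256 annotated starts. The cause was not tested. Without 1 replicate number at a time the values were 87670 to 102067 bp for SPT5 minus NELFB:HA, 82382 to 99236 bp for SPT5 minus NELFE and −5288 to −2831 bp for NELFB:HA minus NELFE. The median leading length differed by 12773.5 to 15462 bp, 12722 to 15086 bp and −376 to −51.5 bp. The share of genes with longer SPT5 regions became 41% without replicate 1 and 59.3% without replicate 2, where fewer lengths must be exceeded, and all 6 members stayed in it. Without the second SPT5 library the Tbx3 length falls to 6427 bp, and without the first it is 19744 bp. A replicate block leaves each difference of means as it was. The SD between replicate numbers under the block was 10180.2, 11917.6 and 1737.4 bp for the lengths over the 6 windows, whose differences were 94868.5, 90809 and −4059.5 bp. The replicate numbers gave no sign of pairing, with correlations of −0.0057, −0.0146 and −0.0323 across 7340 genes.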
